A study of Homo sapiens with 2 samples.

Results

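The SCF ubiquitin ligase was examined in breast cancer cells treated with cisplatin, through 9 of its genes. They are CUL1 and SKP1, its scaffold and adaptor, CDC34, an E2 enzyme that works with it, and the F-box genes FBXW7, BTRC, FBXW11 and CCNF. USP28 and USP37, deubiquitinases that act against SCF or related ligases, complete the group. The genes were chosen for these functions by their Entrez gene IDs, and all 9 had a value among the 23033 genes with one. The rule for the choice uses no measured value, but it was made with earlier results of these data known.

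SCF joins ubiquitin to proteins and so marks them for the proteasome. CUL1 holds a RING subunit, RBX1, at one end and SKP1 at the other, SKP1 binds an F-box protein, and the F-box protein picks the substrate, usually once a kinase has phosphorylated it. SCF drives the cell cycle from G1 to mitosis and shares that work with the APC/C, the ligase that FZR1 activates. The ligases also act on each other, since cyclin F directs FZR1 to destruction and APC/C with FZR1 removes SKP2, an F-box protein, and USP37.

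RNAseq compared a control with FZR1 ko cells, with 1 library of total RNA for each. Both carry the label T-47D, the name of a breast cancer line of luminal type, and both were given cisplatin at 2 µg/ml. The control is labelled WT for FZR1, and an empty vector control is named in the methods for xenografts of such T-47D lines, not for the RNAseq. The FZR1 ko line was made with CRISPR/Cas9 and single cell screening, so it is 1 clone. Untreated cells were not analysed here, and the time in cisplatin is not given in the sources used here.

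With 1 library per condition there is no replicate error, no test was possible and no p-value is given. The authors deposited FPKM, a measure per transcript length and per mapped fragment, so levels of different genes can be set side by side but the reads behind a value are unknown. The log2 ratio is that of FPKM + 1 in FZR1 ko to FPKM + 1 in control. It was taken over the 13554 genes kept, those that reached 1 FPKM in either library. The added 1 FPKM understates the difference of low genes. FZR1 (Entrez gene 51343) had 12.3 FPKM in the control and 10.1 FPKM in the FZR1 ko library. Edited alleles often still make mRNA, and the span of FZR1 overlaps that of MFSD12, so this level is no check of the labels. Of 20 luminal markers 19 had a value and 12 were kept. Their summed FPKM was 2266 in control and 2632 in FZR1 ko, with 6 of the 12 higher and 6 lower. ESR1, PGR, GATA3 and CDH1, which define luminal epithelial cells, were each under 1 FPKM in both libraries. Other genes of the list were high, and KRT8 had 829 FPKM in the control and 998 FPKM in the FZR1 ko library. KRT18 had 552 and 740 FPKM, and XBP1 had 93.4 and 72.6 FPKM. MUC1, an epithelial mucin, had 99.4 and 37.5 FPKM (log2 ratio -1.38), and EPCAM, an epithelial adhesion protein, had 3.90 and 11.5 FPKM (1.35). Of 14 mesenchymal and basal markers 9 were kept, with 4 higher and 5 lower, and their summed FPKM was 444 in control and 389 in FZR1 ko. VIM, which encodes vimentin, had 315 and 295 FPKM, and CDH2, which encodes N-cadherin, had 2.97 and 15.3 FPKM (2.04). MUC1, EPCAM and CDH2 thus differed by 2-fold or more between the libraries, and their part in the results on SCF genes was not tested. The luminal list was mixed, and the levels of ESR1, PGR, GATA3 and CDH1 go against the label, so T-47D is used only as the name the labels give.

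None of the 9 genes differed by 2-fold or more on this scale, where 13.5% of all genes kept did, 6.78% higher and 6.72% lower in FZR1 ko. CUL1, FBXW11 and BTRC were higher in FZR1 ko by log2 ratios of 0.81, 0.68 and 0.67, and USP28 was higher by 0.43. CCNF was lower, with a log2 ratio of -0.69. SKP1, CDC34, FBXW7 and USP37 lay between -0.066 and 0.055. At a threshold of 1.5-fold, 3 genes were higher and 1 was lower, against 18.0% and 17.6% of all genes kept, and 35.6% in either direction. The log2 ratio also differed with the genomic span of genes, as given further on. With the median of genes of like span (their span group) subtracted, called the span-adjusted scale, none of the 9 genes was at least 1.5-fold higher and 2 were lower, FBXW7 and CCNF, against 13.8% and 15.7% of all genes kept that have a span. By its construction that scale places as many protein-coding genes kept of a span group above the group median as below it. Without that subtraction, the median log2 ratio of the 9 genes was 0.06, and that of all genes kept was -0.0048. In RNA of bulk cells, fewer cells that express a gene and less of its RNA per cell cannot be told apart.

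**Figure D1:**
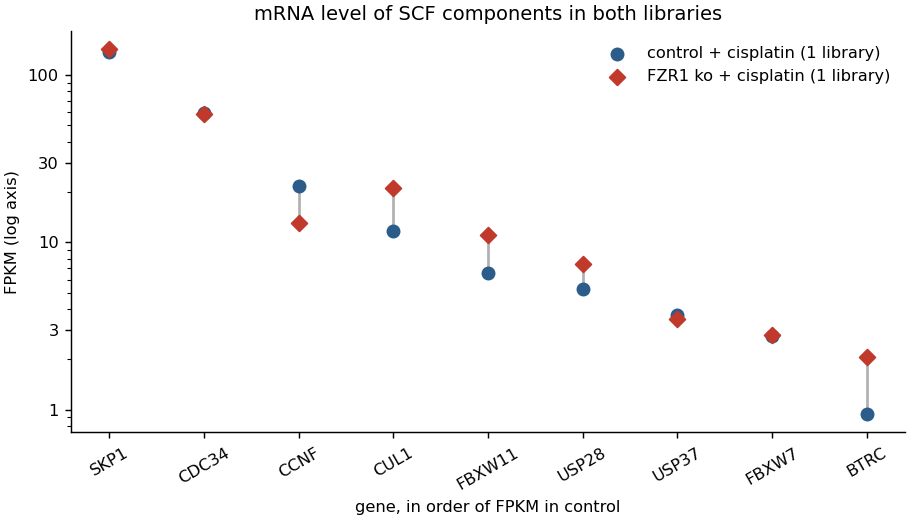
FPKM of the 9 SCF genes on a log axis in the control library (blue circles) and the FZR1 ko library (red diamonds), both with cisplatin, 1 library each, with a line joining the values of a gene. SKP1 stands highest at 137 and 142 FPKM and BTRC lowest at 0.94 and 2.08 FPKM, and CUL1 and CCNF change places.

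In control the order was SKP1, CDC34, CCNF, CUL1, FBXW11, USP28, USP37, FBXW7 and BTRC. In FZR1 ko the order was the same except that CUL1 stood above CCNF. There is no spread between replicates with which to say which neighbours in this order differ. SKP1 in control lay above 95.5% of the genes kept and BTRC above 4.70% of them.

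**Figure D2:**
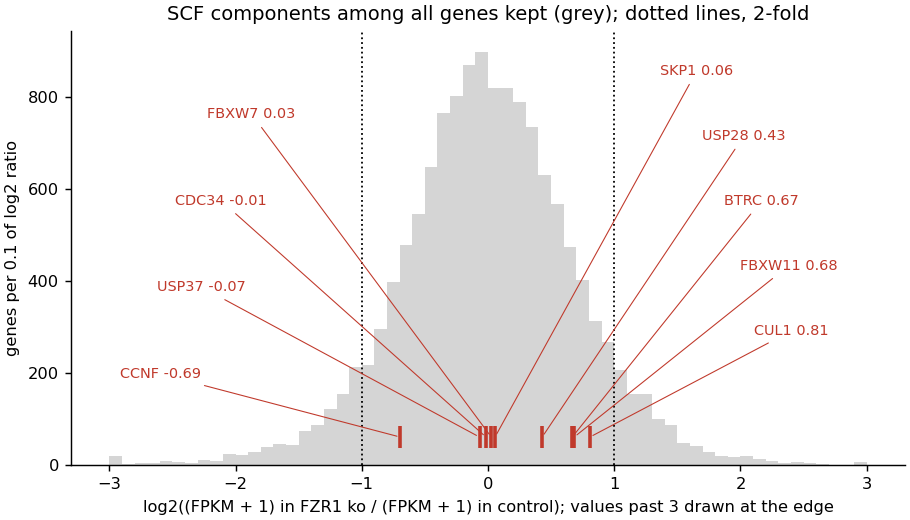
Number of genes kept (grey bars, y axis) by their log2 ratio between FZR1 ko and control (x axis, bins of 0.1), with the 9 SCF genes as red ticks with their values and 2-fold differences as dotted lines. All 9 ticks lie between the dotted lines, with CCNF at -0.69 and CUL1 at 0.81 as the outermost.

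CUL1 (Entrez gene 8454), the cullin backbone of every SCF ligase, is on chromosome 7 of hg38, plus strand, at 148697756 to 148801110. It had 11.6 FPKM in the control and 21.1 FPKM in the FZR1 ko library, which is 1.81 times as much. Among all genes kept, 10.9% had a log2 ratio as high as its 0.81. CUL1 had the highest log2 ratio of the 8 cullin genes, 7 of which were higher and 1 lower in FZR1 ko. Next came CUL3, the scaffold of BTB ligases, from 4.71 to 7.80 FPKM (log2 ratio 0.62), and CUL4A, the scaffold that binds DDB1, from 44.4 to 67.5 FPKM (0.59). CUL7 was the only one lower, with 30.5 FPKM in the control and 18.7 FPKM in the FZR1 ko library (-0.68). On the span-adjusted scale CUL1, at 0.35, ranked 2 of the 8 after CUL4A, at 0.45, and 6 were higher and 2 lower, CUL7 and CUL9. CUL1 made up 10.2% of the summed FPKM of these cullins in control and 14.5% in FZR1 ko.

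SKP1 (Entrez gene 6500), which links CUL1 to the F-box proteins, is on chromosome 5, minus strand, at 134148935 to 134176950. It had 137 FPKM in the control and 142 FPKM in the FZR1 ko library, a log2 ratio of 0.055. Its pseudogene SKP1P2 had 0.23 and 0.21 FPKM, so few reads were assigned there, although reads of near-identical copies cannot be placed with certainty. SKP1 mRNA thus stood 11.8 times above CUL1 mRNA in control and 6.74 times above it in FZR1 ko, in FPKM. RBX1, the RING subunit that recruits the E2, had 48.7 and 53.6 FPKM (log2 ratio 0.13). Of CUL1, SKP1 and RBX1, only CUL1 differed by more than 1.5-fold between the libraries, as did 35.6% of all genes kept. With the span group median subtracted none of them did, where 13.8% of the genes kept that have a span were higher and 15.7% lower.

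CDC34 (Entrez gene 997), the E2 that extends ubiquitin chains on SCF substrates, is on chromosome 19, plus strand, at 531760 to 542087. It had 59.0 FPKM in the control and 58.4 FPKM in the FZR1 ko library, a log2 ratio of -0.015. Its close relative UBE2R2 had 6.09 FPKM in the control and 11.2 FPKM in the FZR1 ko library (0.79). CDC34 was 9.69 times as high as UBE2R2 in control and 5.20 times as high in FZR1 ko. Of 10 partners of SCF, RBX1 and UBE2R2 among them, none was at 2-fold, 4 were at least 1.5-fold higher and 3 at least 1.5-fold lower in FZR1 ko, with a median log2 ratio of 0.19. Of all genes kept 35.6% were at 1.5-fold in either direction. With the span group median subtracted no partner was at least 1.5-fold higher and 1 was lower, UBE2D1, beside 13.8% and 15.7% of the genes kept that have a span. UBE2D2, an E2 that places the starting ubiquitin, had 21.3 and 41.2 FPKM (0.92), while UBE2D1, a near relative of it, had 29.0 and 15.1 FPKM (-0.90). CKS1B, which helps SKP2 to bind p27, was the highest of these partners at 386 FPKM in the control and 257 FPKM in the FZR1 ko library (-0.59).

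FBXW7 (Entrez gene 55294), which recognises phosphorylated cyclin E, MYC, JUN and NOTCH1, is on chromosome 4, minus strand, at 152320544 to 152536092. It had 2.74 FPKM in the control and 2.81 FPKM in the FZR1 ko library, a log2 ratio of 0.027. FBXW7 was the lowest of the 9 genes after BTRC in both libraries. It ranked 51 in control and 49 in FZR1 ko among 70 F-box genes with a value.

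BTRC and FBXW11 encode the paralogs of beta-TrCP, which recognises phosphorylated beta-catenin, IkB, CDC25A, WEE1 and FBXO5. BTRC (Entrez gene 8945) is on chromosome 10, plus strand, at 101354048 to 101557313. It had 0.94 FPKM in the control and 2.08 FPKM in the FZR1 ko library, so it was kept only through FZR1 ko. That is 2.21 times as much in FPKM, but 0.67 as a log2 ratio with 1 FPKM added, and with no pseudocount 11.3% of the genes kept were at least 2-fold higher in FZR1 ko. FBXW11 (Entrez gene 23291) is on chromosome 5, minus strand, at 171861549 to 172006638. It had 6.53 FPKM in the control and 11.1 FPKM in the FZR1 ko library, a log2 ratio of 0.68. Both paralogs were thus higher in FZR1 ko, and their summed FPKM went from 7.47 to 13.2. FBXW11 remained the more abundant of the pair, at 6.95 times BTRC in control and 5.33 times in FZR1 ko. By log2 ratio FBXW11 ranked 2 and BTRC ranked 4 from the top among the 57 F-box genes kept. These ranks were 8 and 28 on the span-adjusted scale, where BTRC was at -0.10.

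CCNF (Entrez gene 899) encodes cyclin F, the protein after which the F-box was named, whose substrates include RRM2, CCP110, CDC6 and E2F factors. It is on chromosome 16, plus strand, at 2429447 to 2458854. CCNF had 21.7 FPKM in the control and 13.02 FPKM in the FZR1 ko library, so control had 1.66 times as much. Its log2 ratio of -0.69 was the lowest of the 9 genes, and 13.7% of all genes kept had a value as low. CCNF was the most abundant of the 4 F-box genes described here in both libraries, ranking 15 of 70 in control and 21 in FZR1 ko.

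The promoters of CCNF and FBXW11 are shown because these F-box genes differed in opposite directions and each has a single start site in the table used. The sequences are those of RefSeq on GRCh38.p14 (hg38), and give the 250 bases before the start site, 5′ to 3′ on the strand of the gene. CCNF is at chr16:2429197-2429446 on the plus strand and FBXW11 at chr5:172006639-172006888 on the minus strand. Capitals mark CCAAT, the box bound by NF-Y, and TTTGAA or TTCGAA, the letters of the cell cycle homology region (CHR) of many genes of G2 and mitosis, on either strand.
CCNF: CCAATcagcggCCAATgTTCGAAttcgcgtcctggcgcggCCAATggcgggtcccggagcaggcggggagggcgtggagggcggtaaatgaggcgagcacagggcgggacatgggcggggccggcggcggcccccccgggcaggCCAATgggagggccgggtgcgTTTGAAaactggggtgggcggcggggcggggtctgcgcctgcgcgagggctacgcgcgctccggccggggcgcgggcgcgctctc
FBXW11: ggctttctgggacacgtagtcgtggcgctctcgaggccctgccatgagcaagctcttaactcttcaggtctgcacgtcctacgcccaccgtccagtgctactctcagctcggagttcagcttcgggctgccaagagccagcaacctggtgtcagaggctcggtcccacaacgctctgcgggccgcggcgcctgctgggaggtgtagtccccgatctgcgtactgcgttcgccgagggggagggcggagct
In the window of 250 bases before to 50 after the start, CCNF held 4 CCAAT and 2 CHR matches, which do not overlap each other. FBXW11 held neither. Of the 35116 windows of all genes of the table, 34.6% held a CCAAT, 16.4% a CHR match and 6.38% both, and 0.991% held 4 or more CCAAT. Windows were found for 7 of the 9 genes, 14 windows in all with 5 for CUL1 and 4 for FBXW7. BTRC and USP37 had no entry. The only other window with both letters was 1 of the 4 of FBXW7. A match of letters is not a measured binding site.

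USP28 and USP37 remove ubiquitin from proteins. USP28 (Entrez gene 57646), which counters FBXW7 on MYC, is on chromosome 11, minus strand, at 113797875 to 113875572. It had 5.27 FPKM in the control and 7.44 FPKM in the FZR1 ko library, a log2 ratio of 0.43, and 24.97% of the genes kept had one as high. USP37 (Entrez gene 57695), which stabilises cyclin A against APC/C with FZR1, is on chromosome 2, minus strand, at 218450251 to 218568351. It had 3.69 FPKM in the control and 3.48 FPKM in the FZR1 ko library (-0.066). The FPKM of USP28 was 1.43 times that of USP37 in control and 2.14 times in FZR1 ko. Of 34 other deubiquitinases, 32 had a value and 29 were kept, with 18 higher and 11 lower in FZR1 ko and a median log2 ratio of 0.23. With the median of genes of like genomic span subtracted, 15 were higher and 14 lower, with a median of 0.034. USP48 had 6.28 and 17.1 FPKM (1.32) and USP9X had 5.03 and 12.7 FPKM (1.19), both at least 2-fold higher, as were 6.78% of all genes kept. On the scale with the span group median subtracted they were at 0.86 and 0.73, under 2-fold. CYLD, which removes ubiquitin chains in NF-kB signalling, was at least 2-fold lower, with 10.8 and 3.47 FPKM (-1.39), as were 6.72% of all genes kept. With the span group median subtracted none of the list was at least 2-fold higher. On that scale 2 were at least 2-fold lower, CYLD at -1.54 and OTUD7B at -1.06, where 9.93% of the genes kept that have a span were at 2-fold. USP1 was the most abundant in control, with 83.5 and 51.1 FPKM (-0.70). USP25, the closest relative of USP28, had 2.13 and 4.57 FPKM (0.83, span-adjusted 0.38).

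The log2 ratio differed with the genomic span of a gene, that is its length from start to end with introns. Over the 11550 protein-coding genes kept, the median log2 ratio was -0.21 for the 1192 genes of up to 5 kb and 0.77 for the 828 genes over 160 kb. Of the former 34.1% had the higher FPKM in FZR1 ko, of the latter 91.1%. The same order was seen within levels. Among genes with a mean of 5 to 20 FPKM, the median was -0.25 for spans up to 10 kb and 0.57 for spans over 80 kb. Above 20 FPKM these medians were -0.17 and 0.53.

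The 4 of the 9 genes with the highest log2 ratios were long. CUL1 spans 103 kb, FBXW11 145 kb, BTRC 203 kb and USP28 77.7 kb. The part of genomic span in their ratios was not tested. In its group of 80 to 160 kb, where the median was 0.46, CUL1 had a higher log2 ratio than 76.9% of 1474 genes, and FBXW11 than 68.7%. BTRC, in the group over 160 kb, had a higher one than 40.1% of the genes. USP28 had a higher one than 71.6% of the 2198 genes of 40 to 80 kb, where the median was 0.15.

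FBXW7 and USP37 hardly differed between the libraries, but they were low for their span. FBXW7, which spans 216 kb, had a higher log2 ratio than 9.66% of the genes over 160 kb. USP37, which spans 118 kb, had a higher one than 15.2% of the genes of 80 to 160 kb. CCNF, of 29.4 kb, had a higher one than 11.9% of the 2443 genes of 20 to 40 kb, where the median was -0.08. With the median of its span group subtracted, the log2 ratio was 0.35 for CUL1, 0.23 for FBXW11, 0.28 for USP28 and -0.10 for BTRC. It was -0.74 for FBXW7, -0.61 for CCNF and -0.52 for USP37. SKP1, of 28.016 kb, and CDC34, of 10.3 kb, were at 0.14 and 0.18. On that scale none of the 9 genes was at 2-fold either, where 9.93% of the 13506 genes kept that have a span were.

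**Figure D3:**
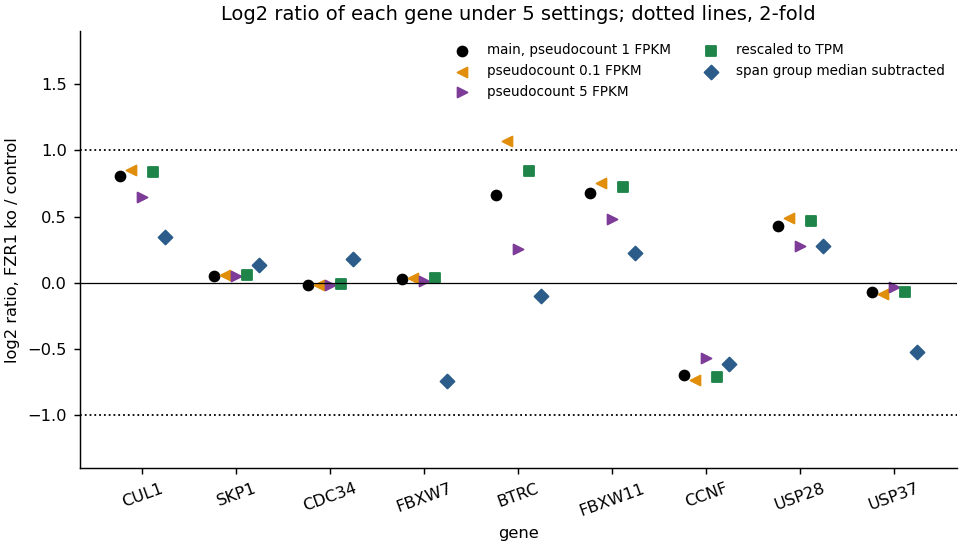
Log2 ratio between FZR1 ko and control (y axis) of each of the 9 SCF genes (x axis) under 5 settings, with 2-fold differences as dotted lines. With a pseudocount of 0.1 FPKM BTRC is at 1.07 and passes the line. With the span group median subtracted FBXW7 moves from 0.027 to -0.74 and USP37 from -0.066 to -0.52.

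The activity of SCF needs NEDD8 on CUL1, which the COP9 signalosome takes off again. Of 15 genes of cullin neddylation and exchange 14 were kept, 7 higher and 7 lower, with a median log2 ratio of -0.01. On the span-adjusted scale 5 were higher and 9 lower, with a median of -0.14. DCUN1D3 (9.10 and 2.41 FPKM, -1.57) and DCUN1D2 (32.5 and 13.8 FPKM, -1.18), which help the transfer of NEDD8, were the only ones at 2-fold, beside 13.5% of all genes kept. NEDD8 itself had 152 and 182 FPKM (0.26), and CAND1, which exchanges F-box modules on CUL1, had 37.0 and 39.1 FPKM (0.078, span-adjusted -0.069). All 9 COP9 genes were kept, 6 higher and 3 lower with a median of 0.19 and none at 2-fold, from COPS2 at 43.3 and 22.3 FPKM (-0.93) to COPS7A at 24.9 and 36.4 FPKM (0.53). COPS6 was the most abundant at 149 and 168 FPKM (0.18), and COPS5, the catalytic subunit, had 40.4 and 49.6 FPKM (0.29).

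The F-box genes apart from the 4 described above numbered 68, of which 66 had a value and 53 were kept. Of these 24 were higher and 29 were lower, with a median log2 ratio of -0.04, and 2 were at 2-fold, both lower, where 6.72% of all genes kept were at least 2-fold lower. Of these genes 17 were higher and 36 lower on the span-adjusted scale, which by its construction splits the protein-coding genes kept of each span group evenly. FBXO5, an inhibitor of APC/C, had 51.6 and 24.2 FPKM (-1.06), and FBXO45 had 18.3 and 8.36 FPKM (-1.04). Their span-adjusted values were -0.87 and -0.96, under 2-fold. The summed FPKM of all 70 F-box genes was 1001 in control and 845 in FZR1 ko. SKP2, which directs p27 to destruction, had 86.6 and 103 FPKM (0.24) and FBXW5 had 101 and 81.6 FPKM (-0.30). FBXW7 and BTRC belonged to the low part of the family, while FBXW11 ranked 35 in control and 25 in FZR1 ko. Among 22 genes of other cullins and their adaptors the median was 0.15, with 12 higher and 10 lower. KCTD5, an adaptor of CUL3, was the only one at 2-fold, where 13.5% of all genes kept were, with 46.96 and 19.95 FPKM (-1.19), and ELOB was the most abundant at 327 and 227 FPKM (-0.52).

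The mRNAs of known SCF substrates were set beside their F-box genes. The protein level of a substrate, on which SCF acts, was not measured here. Of 11 cyclin F substrates 10 were lower and 1 was higher in FZR1 ko, with a median log2 ratio of -0.33, while 50.3% of all genes kept were lower. CCP110, a centriole protein, had 23.9 and 6.25 FPKM (-1.78) and E2F1, which switches on S phase genes, had 83.4 and 38.8 FPKM (-1.09), and these 2 were at least 2-fold lower, as were 6.72% of all genes kept. The span-adjusted values were -1.70 for CCP110 and -0.89 for E2F1. RRM2, which makes deoxynucleotides, had 131 and 116 FPKM (-0.18), and FZR1 is itself on this list. E2F3 was the one higher, with 14 and 15.27 FPKM (0.12), but its span-adjusted value was -0.34, and on that scale KIF20A, at 0.033, was the one higher.

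Of 18 beta-TrCP substrates 17 were kept, of which 14 were lower and 3 were higher, with a median of -0.44, beside the 50.3% of all genes kept that were lower. FBXO5 was the 1 at least 2-fold lower, as were 6.72% of all genes kept, and on the span-adjusted scale none was at 2-fold, with 13 lower and 4 higher. NFKBIA, which holds NF-kB in the cytoplasm, had 113 and 63.5 FPKM (-0.82) and WEE1, which restrains mitosis, had 24.3 and 13.98 FPKM (-0.76). CTNNB1, which encodes beta-catenin, had 85.8 and 85.5 FPKM. GLI2 (0.24 and 1.02 FPKM, 0.70) and YAP1 (25.7 and 36.3 FPKM, 0.48) were the highest by log2 ratio, and GLI2 was kept only through FZR1 ko. Their span-adjusted values were -0.063 and 0.025.

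Of 11 FBXW7 substrates 10 were kept and MYCN was not analysed here. Their median was -0.16, with 4 higher and 6 lower. JUN had 153 and 32.9 FPKM (-2.19), CCNE2 had 77.3 and 24.3 FPKM (-1.63) and CCNE1 had 56.7 and 22.9 FPKM (-1.27). These 3 were at least 2-fold lower, as were 6.72% of all genes kept. MYC, which both FBXW7 and USP28 act on, had 54.8 and 93.8 FPKM (0.76). In FZR1 ko the mRNAs of cyclin E and JUN were thus lower and that of MYC was higher, beside an FBXW7 mRNA of 2.74 and 2.81 FPKM. Of 10 proteins that USP28 or USP37 act on, 5 had a higher and 5 a lower mRNA, with a median of 0.05. On the span-adjusted scale 4 were higher and 6 lower, with a median of -0.13. TP53BP1 had 11.2 and 13.8 FPKM (0.27, span-adjusted -0.19) and CDT1 had 85.8 and 69.0 FPKM (-0.31, span-adjusted -0.11). JUN was the only one of these at 2-fold, where 13.5% of all genes kept were. JUN, MYC and NOTCH1 are on the list of FBXW7 substrates as well, and CLSPN is on that of beta-TrCP substrates.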

How the data were processed

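RNAseq of 1 control and 1 FZR1 ko library, both labelled T-47D with cisplatin, was used. Per the labels, the submitters' processing notes name Trimmomatic 0.36, HISAT2 2.1.0, Bowtie2 2.2.5 and RSEM on hg38. The methods describe transcriptome alignment with Bowtie2 and RSEM, but give a different version of Bowtie2 from that of the notes. The annotation is not given in the sources used here. The authors deposited FPKM per Entrez gene ID, to 2 decimals. Of 24663 gene IDs, 1630 had no value in either library, and 22925 of the other 23033 (99.5%) matched a RefSeq symbol on GRCh38.p14. FPKM holds no counts, so depth and counting error are unknown. FPKM summed to 502589 in control and 500488 in FZR1 ko.

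Log2 ratios with a pseudocount of 1 FPKM were computed for genes of at least 1 FPKM in at least 1 library, and counted at 2-fold. No test was made. The code for 2-fold calls was tested on simulated data, with planted changes larger than that threshold and without low genes. That test does not cover low genes, the 1.5-fold counts or the span-adjusted scale. Genomic spans and promoter windows come from RefSeq, strands from GENCODE 44. The 9 genes and all lists were chosen with earlier results of these data known, and list members were written from general knowledge. Named genes were the 9 genes, FZR1, list genes at 2-fold, the most abundant gene of a list, RBX1, SKP2, UBE2R2 and USP25 as partners or relatives, substrates, and markers of the cell line. CUL2, CUL3, CUL4A, CUL5, CUL7, UBE2D1, UBE2D2, UBE2G1, ARIH1, COPS2, COPS5, COPS7A, CAND1, KDM2A, OTUD7B, MFSD12, XBP1 and SKP1P2 and the use of genomic span were chosen after their values were seen. Alternatives were pseudocounts of 0.1 and 5 FPKM, other filters, centring, rescaling, thresholds of 1.5-fold and 4-fold, protein-coding genes, no pseudocount, and subtraction of the span group median. Python 3.11.15, numpy 2.4.6, pandas 2.3.3 and matplotlib 3.10.9 were used.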

Additional observations from a re-analysis of the deposited data

How the results depend on the processing

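No paired analysis was possible because only 1 library stands for control and 1 for FZR1 ko, with no test. Leaving out a replicate was not possible either, and the counting error of BTRC, at 0.94 FPKM in control, is unknown without counts. The settings without a pseudocount and with the span group median subtracted were chosen after seeing the data.

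Of the 9 SCF genes, BTRC alone passed the 2-fold threshold under any setting, with a log2 ratio of 1.07 at a pseudocount of 0.1 FPKM and 1.15 with none, each giving 1 higher gene in place of 0. With at least 1 FPKM in both libraries BTRC was not kept. Centring and rescaling turned the direction of none of the 9. Subtracting the span group median turned BTRC to -0.10, FBXW7 to -0.74 and CDC34 to 0.18. At 1.5-fold 3 genes were higher and 1 lower, but 0 higher and 2 lower with that median subtracted, a combination also chosen after seeing the data.

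Over all genes, 919 were higher and 911 lower at 2-fold. A pseudocount of 0.1 FPKM gave 1460 higher, 5 FPKM gave 183 higher and 270 lower, and none gave 1526 higher and 1436 lower. The 1.5-fold threshold gave 2440 higher and 2387 lower and the 4-fold threshold 61 and 89. With the span group median subtracted 609 were higher and 732 lower. The other settings stayed within 1.5 times of these numbers.

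Genes at 2-fold numbered 0 of 10 SCF core partners, 0 of 9 COP9 genes, 2 of 14 of neddylation and 2 of 53 other F-box proteins. They numbered 1 of 22 of other cullins, 3 of 29 other deubiquitinases, 3 of 10 FBXW7 substrates and 1 of 17 beta-TrCP substrates. They also numbered 2 of 11 cyclin F substrates and 1 of 10 USP28 and USP37 clients. Of all genes kept 13.5% were at 2-fold. At 1.5-fold there were 7 SCF core partners, 1 COP9 gene, 13 F-box proteins, 6 of other cullins, 11 deubiquitinases, 5 FBXW7 substrates, 6 beta-TrCP substrates and 3 clients. Of all genes kept 35.6% were at 1.5-fold. At 4-fold 1 FBXW7 substrate was left, and 0 were left of neddylation, F-box proteins, other cullins, deubiquitinases, beta-TrCP substrates and cyclin F substrates. A pseudocount of 5 FPKM left 0 of neddylation, F-box proteins, beta-TrCP substrates and deubiquitinases. With 0.1 FPKM or none there were 6 F-box proteins, 2 beta-TrCP substrates and 5 deubiquitinases, and rescaling both libraries to the same larger sum gave 5 F-box proteins and 2 beta-TrCP substrates. After subtracting the span group median there were 1 F-box protein, KDM2A at -1.31 in place of FBXO5 and FBXO45, 0 beta-TrCP substrates and 1 cyclin F substrate, CCP110. Of the genes kept that have a span 9.93% were then at 2-fold. That setting moved the median of neddylation genes to -0.14, of cyclin F substrates to -0.46, of deubiquitinases to 0.034, and of clients from 0.05 to -0.13. The median of beta-TrCP substrates was -0.31 at 5 FPKM, and that of deubiquitinases was 0.12 with no filter. A smaller pseudocount or threshold passes more genes by its construction. The cause of the other shifts was not tested.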

Other observations

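The SCF core partners over 80 kb, UBE2R2, ARIH1, UBE2G1 and UBE2D2, had higher log2 ratios than the other partners. ARIH1, an E3 that adds the starting ubiquitin for neddylated cullins, spans 129 kb and had 4.12 FPKM in the control and 7.88 FPKM in the FZR1 ko library, a log2 ratio of 0.79, which was 0.34 above the median of its span group. UBE2G1, an E2 of cullin ligases, spans 97.4 kb and had 6.21 and 12.1 FPKM (0.86, or 0.40 above its group). CUL2, of 118 kb, and CUL5, of 98.9 kb, had log2 ratios of 0.49 and 0.54 and lay 0.032 and 0.079 above the median of their span group. CUL4A, of 58.9 kb, lay 0.45 above it. These genes, apart from UBE2R2, were chosen after their values were seen.

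The difference between the libraries also varied with level. The median size of the log2 ratio was 0.47 among the 2479 genes with a mean of 2 to 5 FPKM, which is the range of FBXW7 and USP37, and 17.5% of them were at 2-fold. It was 0.27 among the 840 genes above 100 FPKM, which is the range of SKP1, and 4.64% of them were at 2-fold.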
